A study of Mus musculus with 12 samples.

Results

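Krt5, Krt14 and Krt15 are the keratin genes that mark the basal layer of stratified epithelium, and they are the 3 genes described here of 20230 gene symbols in the count files. They were chosen by symbol, not by a measured value. The cells came from the peeled esophageal epithelium of C57BL/6 mice and were profiled by inDrop, a droplet method that tags RNA molecules from single cells with a cell barcode. Of 6 mice, 3 were aged (at least 18 months) and 3 were young (at most 4 months), each with 2 libraries, and no treatment or allele separated the groups. The labels do not say whether a numbered mouse was 1 animal or a pool.

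Keratins build the intermediate filament network of epithelial cells, and a filament is made of paired type I and type II chains. Keratin 5 is the type II chain of basal cells, and keratins 14 and 15 are type I chains that can pair with it. In the esophagus, dividing cells lie in the basal layer, and as cells leave it they switch to keratins 4 and 13 and move through the suprabasal layers to the surface, where they are shed. Keratin 15 has been used to mark long-lived basal progenitors in mouse esophagus.

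In GRCm38 with GENCODE M21 gene models, Krt5 (ENSMUSG00000061527.7) lies at chr15:101707070-101712898 on the minus strand, among type II keratin genes, with Krt6a 12762 bases away on one side and Krt71 21050 bases on the other. Krt14 (ENSMUSG00000045545.8, chr11:100203162-100207548) and Krt15 (ENSMUSG00000054146.8, chr11:100131758-100135928) both lie on the minus strand within the type I cluster. Krt14 is next to Krt9 (9915 bases) and Krt16 (38542 bases). Krt15 is next to Krt19 (4881 bases) and to Krt13 (10191 bases), the type I keratin that replaces the basal keratins above the basal layer. Krt5 has 9 exons and 2197 exonic bases, Krt14 has 8 exons and 1698, and Krt15 has 8 exons and 1700. The 250 bases before the start of Krt5 (RefSeq, GRCm38.p6, chr15:101712906-101713155, minus strand) are shown because Krt5 is the chain shared by both possible pairs. Capitals mark CACCC, a motif bound by factors of the KLF family, or its reverse complement GGGTG.
Krt5: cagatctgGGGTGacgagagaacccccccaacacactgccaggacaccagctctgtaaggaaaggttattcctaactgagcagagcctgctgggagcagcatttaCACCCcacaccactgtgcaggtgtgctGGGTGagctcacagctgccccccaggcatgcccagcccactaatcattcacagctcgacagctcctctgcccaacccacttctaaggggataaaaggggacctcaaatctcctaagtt
On both strands, CACCC occurred 3 times, with first bases 242, 145 and 118 bases before the start, and 52.0% of 32851 promoter windows of the same length held it. The other motifs searched had no exact match in this window: TATAAA (in 12.4% of windows), the AP-1 motif TGANTCA (6.75%), the AP-2 motif GCCNNNGGC (13.7%) and the Sp1 motif GGGCGG (32.7%). Near matches were not searched. These are letter matches in a window and carry no measurement of binding.

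Related keratins share sequence, so reads could be split between them. Of the 40-base windows in the Krt14 transcript, 354 of 1659 (21.3%) also occurred in a transcript of another gene, most of them (248) in Krt16, and 63 of the 461 windows in its last 500 bases were shared. For Krt5 the count was 213 of 2158 (9.87%), with 175 in Krt6a, and for Krt15 it was 33 of 1661 (1.99%). In the last 500 bases, which 3' counting reads most, Krt5 and Krt15 shared no window, and none of the 3 shared a window with Krt13 or Krt4. Krt16 itself was at 6.70 CPM (counts scaled to one common total per sum of cells, as in the whole report) and Krt6a at 274 CPM over all cells. How reads matching several genes were counted is not given in the sources used here. Krt5 also overlaps a miRNA gene, Gm44323, on the opposite strand.

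After filtering, 4261 cells remained of 4386 barcodes, from 171 to 1238 per mouse, with median depths of 1790.5 to 2730 counts per cell. Between 88.1 and 97.8% of a mouse's barcodes occurred in both of its libraries, and these differed by less than mice did (chi-square per gene 0.54 to 1.25 within a mouse, 2.87 to 4.27 between mice of a group), so their counts were added and each mouse was 1 sample. Of its barcodes, each mouse shared 7 to 41 with other mice. Cells were clustered with Krt5, Krt14 and Krt15 left out and named from other markers: 1380 basal-like cells (Col17a1, Dst, Itga6, Itgb4, Trp63 and Lamb3), 808 proliferating-like, 1401 suprabasal-like (Krt4, Krt13, Mt4, Dsc2 and Grhl3), 482 superficial-like, 22 fibroblast-like, and 2 unnamed clusters of 158 and 10 cells. Genes that go with the 3 keratins stayed in the clustering, so differences between classes are first a description of those classes. Aged mouse 1 had 13 superficial-like cells and was left out of that class. Summed over all cells, fibroblast markers (6 of 6 in the files) were at 148 to 533 CPM per mouse, immune markers (5 of 6) at 2.17 to 296 CPM and endothelial markers (4 of 4, all at 0 in 3 mice) at 0 to 9.51 CPM. Dcn made up the largest part of the fibroblast sum, at a mean of 203 CPM over all cells. In basal-like cells Dcn was at a mean of 316 CPM and in proliferating-like cells at 221 CPM. The other fibroblast markers had means of at most 9.55 CPM in basal-like cells. The fibroblast sum is therefore not a measure of fibroblasts alone. The part of fibroblasts, immune and endothelial cells in the keratin values was not tested.

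All 3 keratins were abundant in basal-like and proliferating-like cells of every mouse. In basal-like cells, Krt5 was at 8907, 6438 and 7903 CPM in aged mice 1 to 3 and at 9450, 8457 and 8567 CPM in young mice 1 to 3, a mean of 8287 ± 1040 (SD, n = 6). Krt14 was at 4107, 2858 and 5648 CPM in aged and at 5479, 5649 and 5050 CPM in young mice, a mean of 4799 ± 1115. Aged mouse 2 had the lowest level of both, and the age groups overlapped for both genes. Krt15 was at 7453, 7096 and 8896 CPM in aged and at 8299, 9422 and 8854 CPM in young mice, a mean of 8337 ± 903, again with overlapping groups. In proliferating-like cells the means were 8031 ± 1158 CPM for Krt5, 4109 ± 1012 for Krt14 and 7231 ± 771 for Krt15, so levels per gene differed little from those of basal-like cells. Over all cells, Krt5 ranged from 3691 to 6220 CPM, Krt14 from 1350 to 3056 and Krt15 from 3874 to 5409. CPM depend on the class makeup of each mouse in that last measure, and the order of the 3 genes by CPM is not read as a result.

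**Figure D1:**
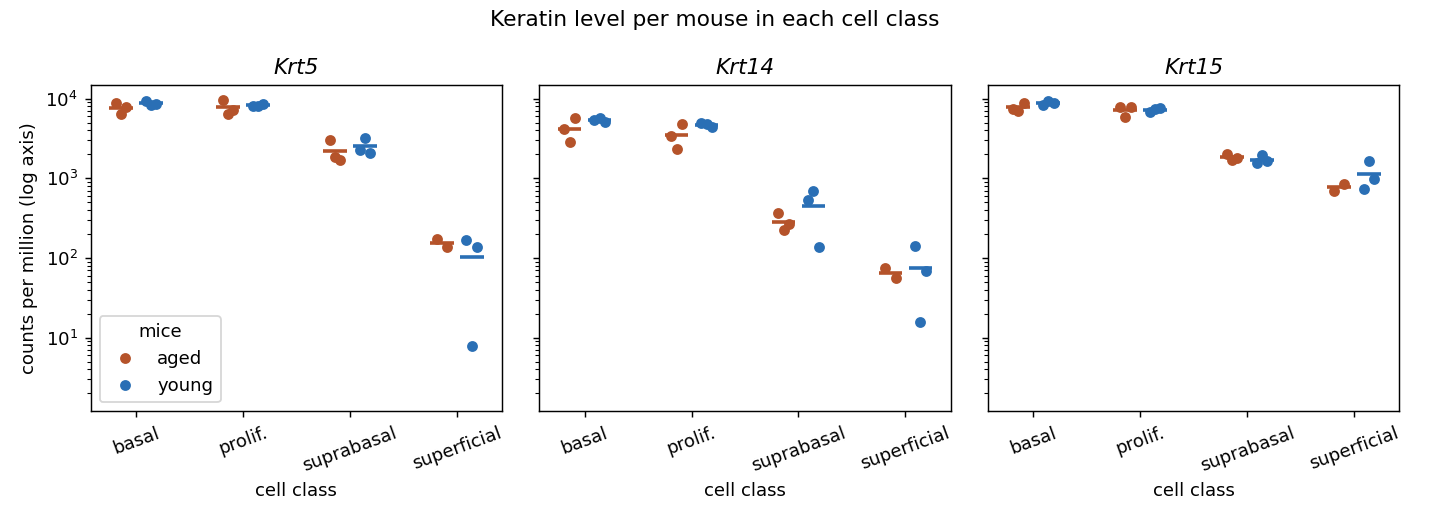
Level of each keratin per mouse, in CPM on a log axis, in 4 cell classes (points, mice; bars, group means; aged and young in different colours). Every gene is highest in the basal and proliferating classes, and in superficial-like cells Krt5 and Krt14 lie lowest in young mouse 2 (7.91 and 15.8 CPM) while Krt15 stays between 693 and 1629 CPM.

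In suprabasal-like cells each keratin was lower in 6 of 6 mice, and Krt14 had fallen furthest. Krt5 was at 3069, 1862 and 1702 CPM in aged and at 2253, 3223 and 2087 CPM in young mice. Krt14 was at 362, 225 and 268 CPM in aged and at 533, 690 and 136 CPM in young mice. The ages overlapped for both, and young mice held the highest and, for Krt14, the lowest values. Krt15 was at 2003, 1702 and 1783 CPM in aged and at 1564, 1942 and 1661 CPM in young mice, the narrowest range of the 3. Within a mouse, the mean log2 ratio to its basal-like cells (on the log2(CPM + 10) scale) was −1.84 ± 0.32 for Krt5 (3.57-fold lower), −3.82 ± 0.77 for Krt14 (14.1-fold) and −2.22 ± 0.21 for Krt15 (4.67-fold; SD, n = 6). Each gave an exact two-sided sign-flip permutation p of 0.03125, the smallest that 6 mice allow, and 0.0703 after adjustment over the 9 class ratios. edgeR's quasi-likelihood test over all genes with the mouse as a block, added after the data were seen, called all 3 lower, with log2 fold changes of −1.76 (SE 0.07), −3.73 (0.15) and −2.15 (0.06) and adjusted p of 4.69e-19, 2.52e-19 and 8.78e-23. That test called 20% of 6063 genes lower, and by fold Krt14 ranked at 22, Krt15 at 114 and Krt5 at 184 among them.

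In superficial-like cells Krt5 and Krt14 were nearly gone, while Krt15 remained at 693 to 1629 CPM. Krt5 was at 171 and 136 CPM in aged mice 2 and 3 and at 167, 7.91 and 136 CPM in young mice. Krt14 was at 74.2 and 56.1 CPM in those aged and at 142, 15.8 and 69.3 CPM in young mice. Young mouse 2 stood apart, with 1 count of Krt5 and 2 of Krt14 in 41 cells. Krt15 was at 693 and 849 CPM in aged and at 743, 1629 and 994 CPM in young mice, a mean of 981 ± 380 (SD, n = 5), with young mouse 2 highest. As a share of the mouse's own basal-like level, Krt15 was at 8.95 to 11.2% in the other 4 mice and at 17.3% in young mouse 2 (exact Poisson 95% interval 14.9 to 19.9%). Krt5 was at 1.59 to 2.66% in those 4 mice and at 0.0935% (0.00237 to 0.521%) in young mouse 2, and Krt14 was at 0.993 to 2.59% and at 0.280% (0.0339 to 1.01%). These intervals cover counting error only and take each count as a separate molecule. The mean log2 ratios were −6.28 ± 1.48 for Krt5, −6.09 ± 1.09 for Krt14 and −3.17 ± 0.38 for Krt15 (lower in 5 of 5 mice, exact permutation p = 0.0625 each, the smallest that 5 mice allow; 0.0703 adjusted). Without young mouse 2 the Krt5 ratio was −5.63. In edgeR's quasi-likelihood test the log2 fold changes were −5.56 (SE 0.24), −5.55 (0.23) and −2.83 (0.13), with adjusted p of 1.26e-17, 6.09e-18 and 9.76e-17, where 31.7% of 5626 genes were called lower.

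Cells that should lack these genes gave a measure of stray counts. In the 22 fibroblast-like cells, 5 had a count of Krt5, 2 of Krt14 and 5 of Krt15, or 22.7%, 9.09% and 22.7%, at a median depth of 1846.5 counts, but 4 of the 5 cells with Krt5 and both with Krt14 came from young mouse 1. In the 14 such cells of the other mice, 1 had Krt5 (7.14%), 0 had Krt14 (which allows a share of up to 21.4%) and 3 had Krt15 (21.4%). In superficial-like cells (median depth 3071 counts) the mean shares were 17.7% for Krt5 and 9.66% for Krt14, which lie under or near the shares of all fibroblast-like cells and, for Krt5, above that without young mouse 1. For Krt15 the share was 51.8%, and for suprabasal-like cells (2308 counts) the shares were 64.9%, 19.9% and 68.1%. These depths differ. At an equal depth of 1000 counts per cell, Krt15 was found in 23.0% of the fibroblast-like cells pooled. In superficial-like cells it was then found in 33.9 to 42.8% per mouse, a smaller gap. The pooled fibroblast-like level of Krt15 was 823 CPM, from 35 counts in 5 cells. That lies within the 693 to 1629 CPM of superficial-like cells. The log2 ratio of Krt15 to Krt5 counts was 0.01 ± 0.19 in basal-like cells (SD, n = 6) and 2.01 to 7.69 in the superficial-like cells of 5 mice. It was −0.51 in the fibroblast-like cells pooled, but 47 of their 50 Krt5 counts came from young mouse 1. In the fibroblast-like cells of the other mice, Krt5 had 3 counts and Krt15 had 19, so the pooled ratio rests on that mouse. The part of stray counts in the superficial-like ratio, and in the Krt15 level of superficial-like cells, was not tested.

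The 3 keratins did not decline in step. Relative to basal-like cells of the same mouse, Krt14 was lower than Krt5 in suprabasal-like cells by a mean log2 difference of −1.98 (6 of 6 mice, exact permutation p = 0.03125, 0.0625 adjusted over 6 comparisons). Krt15 exceeded Krt14 there by 1.59 (6 of 6 mice, same p). Krt15 was lower than Krt5 by −0.39 in 6 of 6 mice (same p), but this order turned to 0.78 with doublet calls kept and to 0.79 at a finer clustering, so it rests on where the suprabasal-like class is drawn. In superficial-like cells, Krt15 kept more of its basal level than Krt5 (log2 difference 3.11) and than Krt14 (2.92) in 5 of 5 mice (exact permutation p = 0.0625, 0.075 adjusted). Krt14 and Krt5 differed by 0.19 ± 0.67 (exact permutation p = 0.6875), less than the spread between mice.

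A second order of cells used no clusters. The cells of each mouse were ranked by the mean level of the suprabasal and superficial marker genes, none of them a member, and split into 5 bins of equal size. As a mean percent of bin 1, Krt5 was at 108, 90.8, 37.6 and 5.48% in bins 2 to 5. Krt14 was at 98.3, 53.1, 15.8 and 2.81%, and Krt15 at 99.7, 68.9, 25.3 and 17.6%. By these means Krt14 left the basal level first and Krt5 last, and in bin 5 Krt15 held the highest share. In bin 3, Krt14 was below Krt5 by a log2 difference of −0.89 and below Krt15 by 0.44, each in 6 of 6 mice (exact permutation p = 0.03125, 0.046875 adjusted over 12 comparisons, which were added after the data were seen). The difference of Krt14 and Krt15 no longer passed with at least 500 genes a cell (0.40) or with library 1 alone (0.44, exact permutation p = 0.0625 each). Krt15 was below Krt5 there by −0.45 in 5 of 6 mice (exact permutation, 0.075 adjusted). In bin 4, Krt14 was below Krt5 by −1.46 in 6 of 6 mice (exact permutation, 0.046875 adjusted) and below Krt15 by 1.13 (the same p, but 0.0625 unadjusted with library 2 alone or with the share of counts as score), and Krt15 was below Krt5 in 4 of 6 (−0.33, 0.409 adjusted). In bin 5, Krt15 exceeded Krt5 by 1.86 and Krt14 by 2.91 in 6 of 6 mice (exact permutation, 0.046875 adjusted each), and Krt14 was below Krt5 by −1.05 in 5 of 6 (0.075 adjusted).

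Mice differed in the bin at which the levels fell. Aged mouse 1 and young mouse 2 stood above the other 4 in bins 3 and 4. Bins are equal parts of each mouse's own cells, so the stage that a bin holds depends on class makeup. Basal-like cells made up 45.0 and 36.2% of the cells of these 2 mice and 26.4 to 33.8% in the other 4. Superficial-like cells made up 7.60 and 7.61%, against 9.77 to 14.6%. The part of makeup in the bin values was not tested. Between bins 1 and 4, Krt5 changed by −0.54 and −0.33 on the log2 scale in those 2 mice and by −1.89 to −2.62 in the others. From bin 1 to bin 5, Krt5 changed by −4.42, −3.17 and −4.94 in aged mice 1 to 3 and by −5.23, −3.38 and −5.47 in young mice 1 to 3. For Krt15 the aged values were −1.76, −2.37 and −3.03 and the young values −3.08, −2.39 and −2.84, the smallest change of the 3 keratins in every mouse. For Krt14 the aged values were −6.65, −3.44 and −6.13 and the young values −5.21, −5.47 and −6.03. Aged mouse 2 had the smallest change of Krt5 and of Krt14. The bins held all cells kept, among them the larger unnamed cluster, which made up 10.7% of the cells of aged mouse 2 (132 cells). Values without that cluster are not given here. The ages overlapped for all 3 genes.

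**Figure D2:**
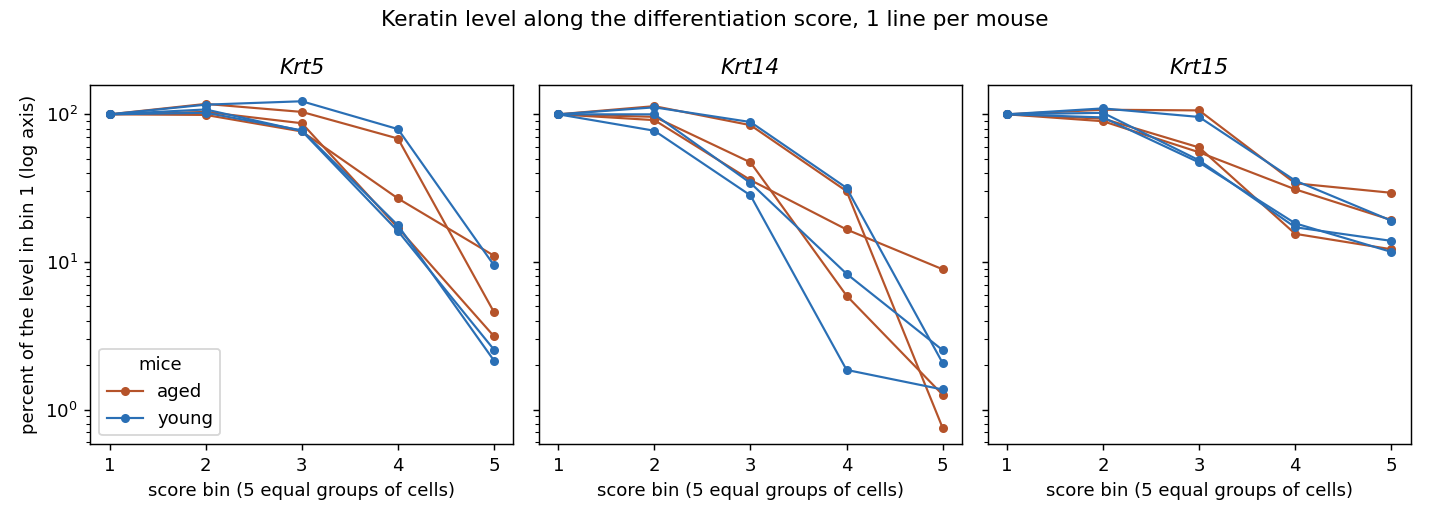
Keratin level as percent of bin 1 (log axis) across 5 equal bins of cells ordered by differentiation score, 1 line per mouse, coloured by age. Krt14 drops from bin 3 on (mean 53.1%), Krt5 from bin 4 (37.6%), and Krt15 ends highest (17.6% in bin 5), with the lines of aged and young mice mixed.

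Finer clustering (Leiden resolution 0.8) drew the borders of the classes differently, with 1292 basal-like cells in place of 1380. Which cells moved between the 2 clusterings was not tabulated. A cluster of 608 cells led by Thbd and Adh7, which got no name, held Krt5 at 65.9% of the mouse's basal-like level (50.4 to 91.8% over 6 mice), Krt14 at 21.3% (6.02 to 45.7%) and Krt15 at 34.0% (24.0 to 48.3%). Krt14 and Krt15 were each below Krt5 in 6 of 6 mice. In the 860 cells named suprabasal-like at this resolution, Krt5 was at 10.5%, Krt14 at 3.33% and Krt15 at 17.0%, and Krt15 was below Krt5 in 1 of 6 mice. The order of Krt5 and Krt15 thus differed between these clusters, with no test of that difference. A cluster of 331 cells led by Crabp2 and Ly6g6c had 1.76%, 1.38% and 13.2% (5 mice), and the 150 superficial-like cells had 1.46%, 1.98% and 6.99% (4 mice).

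**Figure D3:**
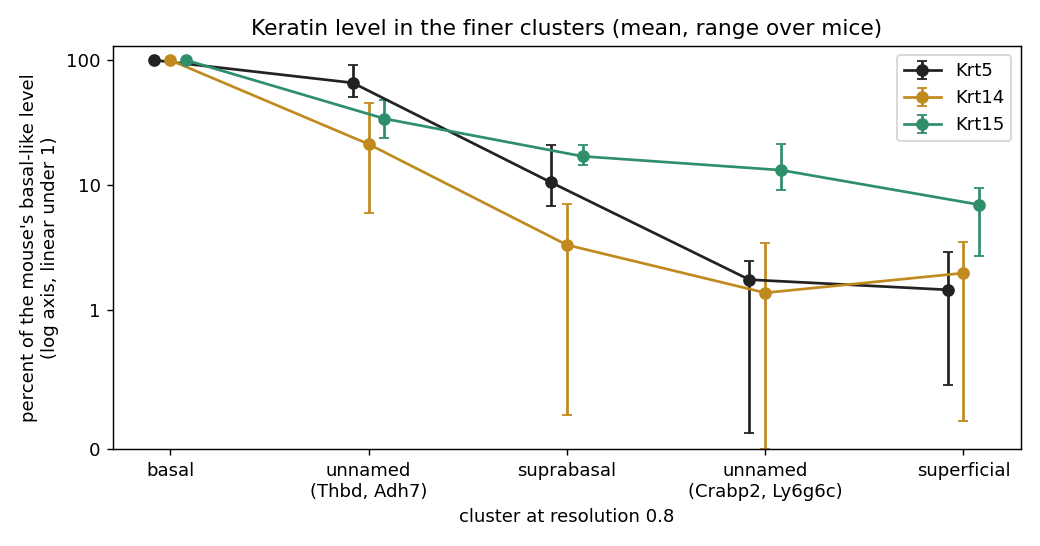
Mean percent of each mouse's own basal-like level (log axis, linear under 1) in clusters at resolution 0.8, with bars from the lowest to the highest mouse. Krt5 is highest in the Thbd and Adh7 cluster (65.9%), and Krt15 in the later clusters (17.0% in the suprabasal-like cells).

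To compare single cells at equal depth, each cell was thinned to 1000 counts by the exact expected share. That left out 167 of 2002 aged and 94 of 2259 young cells as too shallow. Among basal-like cells, 99.6% had a count of Krt5, 90.6% of Krt14 and 98.1% of Krt15, and 89.1 ± 4.63% had all 3 (93.3% unthinned). The product of the single shares was 88.5%, so with detection this close to complete, shares leave little room for co-variation. In proliferating-like cells 86.1% had all 3, against a product of 84.9%. The excess over the product was small but above 0 in 6 of 6 mice in both classes. It was 0.52 percentage points in basal-like and 1.26 in proliferating-like cells (exact sign-flip permutation p = 0.03125, 0.05 adjusted, each). In basal-like cells the log2 odds ratio of co-detection was 2.63 for Krt14 and Krt15, above 0 in 6 of 6 mice (exact permutation, 0.0536 adjusted). For Krt5 with Krt14 and with Krt15 it was above 0 in 3 and 4 of 6.

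In percentage points, the excess over the product of the single shares was largest in suprabasal-like cells, where detection was far from complete. In suprabasal-like cells 55.3% had a count of Krt5, 14.7% of Krt14 and 57.0% of Krt15 at 1000 counts. All 3 were found together in 11.2 ± 3.97% (16.2% unthinned), against a product of 4.80%. The difference of 6.40 ± 2.22 percentage points was above 0 in 6 of 6 mice (exact sign-flip permutation p = 0.03125, 0.05 adjusted over 16 comparisons) and 3.08 with doublet calls kept and 2.78 at resolution 0.8 (both exact permutation p = 0.0625). By pairs, Krt5 and Krt14 were together in 13.5% of cells against a product of 8.32%, Krt5 and Krt15 in 35.5% against 31.7%, and Krt14 and Krt15 in 11.9% against 8.43%. Each pair exceeded its product in 6 of 6 mice. A class that spans a range of differentiation contains both cells with and cells without all keratins, and this measure does not separate that from co-variation at 1 stage.

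Detection of the keratins overlapped within cells. Of suprabasal-like cells with Krt14, 90.9% also had Krt5, whereas 24.2% of those with Krt5 had Krt14. Each share was above that of all suprabasal-like cells given before, and the gap between them follows from Krt14 being found in fewer cells. Krt14 alone was found in 0.432% of cells, Krt5 alone in 17.4%, Krt15 alone in 20.8%, and none of them in 22.8%. In superficial-like cells Krt15 alone was found in 30.2% and none in 57.8%, and all 3 in 2.30% against a product of 0.216% (above in 4 of 5 mice, exact permutation p = 0.125). Over all cells, 52.3% had all 3 and 14.3% had none.

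**Figure D4:**
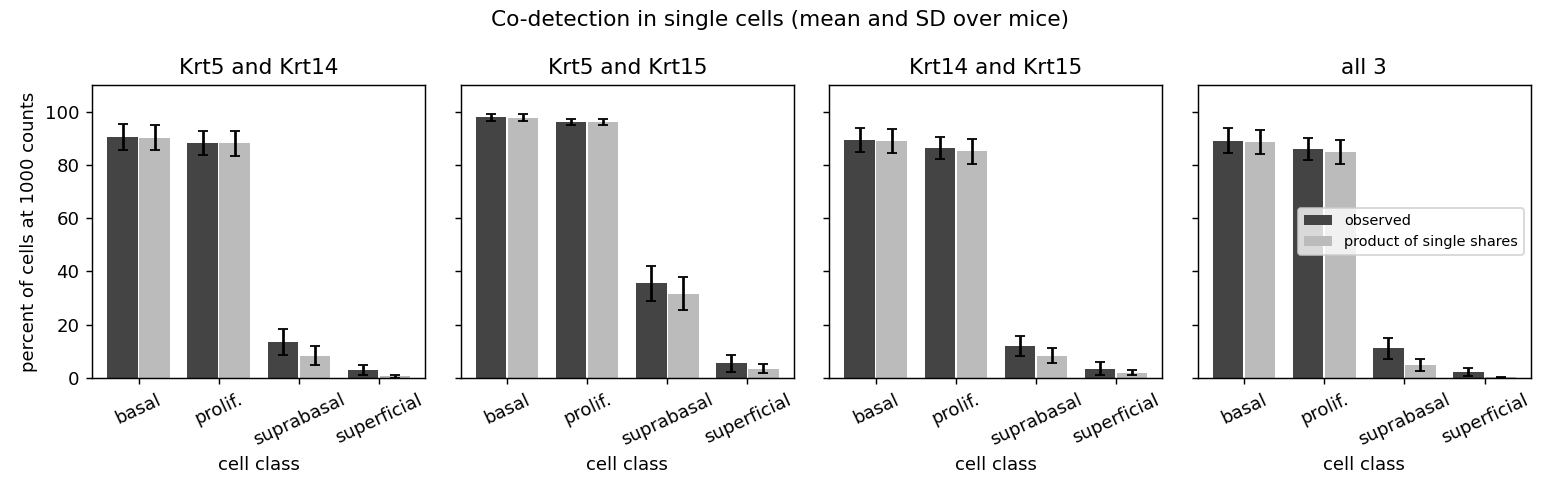
Percent of cells with both or all 3 keratins at 1000 counts per cell (dark bars, mean and SD over mice) beside the product of the single shares (light bars), for 3 pairs and all 3 genes in 4 classes. The bars lie close together in basal and proliferating cells (89.1 and 88.5% for all 3 in basal cells). For all 3 genes the observed share was still above the product in 6 of 6 mice in both. In suprabasal-like cells the bars lie further apart (11.2 and 4.80%).

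Among basal-like cells the keratins varied by different amounts. The Fano factor (variance over mean, at 1000 counts, where 1 is counting noise) was 1.65 ± 0.15 for Krt5, 2.63 ± 0.22 for Krt14 and 2.56 ± 0.27 for Krt15 (SD, n = 6). Krt14 was missing from 9.40% of basal-like cells, where counting noise at its mean would give 1.50%. Krt15 was missing from 1.88% against 0.0313%, and Krt5 from 0.378% against 0.0446%. These baselines take each count as a separate molecule. The counts are sums of 2 libraries, and molecules counted in both would raise the Fano factors and missing shares above the baselines. That was not tested. To see whether a cell's level of one keratin went with that of another, the count in 1 library of a mouse was set against the count in its other library. Whether the 2 libraries hold different molecules is not known. Independent counts would give a chi-square per gene of about 1, and it was 0.54 to 1.25, under 1 in each mouse but aged mouse 2. Molecules counted in both libraries would raise the correlation of a gene with itself. As a description over 6 mice, each gene correlated with itself across libraries (Krt5 0.51 to 0.63, Krt14 0.70 to 0.91, Krt15 0.64 to 0.90). Krt5 with Krt14 gave 0.10 to 0.18, Krt5 with Krt15 0.005 to 0.14, and Krt14 with Krt15 −0.07 to 0.01. These points share cells, depth and libraries.

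Keratin levels in dividing cells differed slightly. From basal-like to proliferating-like cells, Krt14 was lower in 6 of 6 mice (log2 ratio −0.23, exact permutation p = 0.03125, 0.0703 adjusted) and Krt15 in 5 of 6 (−0.21, exact permutation p = 0.0625). edgeR's quasi-likelihood test called both lower (−0.26, adjusted p = 3.93e-05, and −0.25, adjusted p = 5.97e-05), among the 9.12% of 5628 genes called lower, and did not call Krt5 (−0.09, adjusted p = 0.147). At 1000 counts, 44.4% of basal-like and proliferating-like cells with Krt14 had a count of a proliferation marker and 51.5% of those without it did, a difference of −7.05 percentage points (lower in 5 of 6 mice, exact permutation p = 0.0625, 0.1875 adjusted over 3). It was −12.1 points with doublet calls kept and −12.4 at resolution 0.8, where it passed before adjustment (exact permutation). For Krt15 the difference was −7.38 points (exact permutation p = 0.3125), within the spread between mice and resting on 1.68 to 19.6 expected cells without Krt15 a mouse. For Krt5 only 0.0815 to 3.94 cells a mouse were expected to lack it, so that comparison says nothing.

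The genes most like each keratin were picked by their pattern over 24 sums of cells per mouse and cluster. One of these sums was the larger unnamed cluster in aged mouse 2. The values are descriptive Pearson correlations over the same libraries and clusters, among 3532 genes. Genes picked in this way share the keratins' peak by choice, and they were likewise highest in basal-like or proliferating-like cells. For Krt5 they were Paics, a purine synthesis enzyme (0.988), Bod1l (0.975), Cavin1, a caveolar coat protein (0.973), Mmp14, a membrane-bound matrix protease (0.971), and Col17a1, the hemidesmosomal collagen (0.968). For Krt14 they were Igfbp7 (0.984), Serpinh1, a collagen chaperone (0.971), Lamb3, a laminin chain of the basement membrane (0.971), Cav1, a caveolin (0.968), and Tgfbi (0.967). For Krt15 they were Wfdc2 (0.976), Mthfd1, a folate enzyme (0.975), Ptprs, a receptor phosphatase (0.973), Smoc2 (0.967) and Serpinh1 (0.960). Among the members, Krt14 with Krt15 gave 0.941, Krt5 with Krt14 0.922 and Krt5 with Krt15 0.835. Paics kept 253 CPM in suprabasal-like cells of its 552 in basal-like cells, whereas Lamb3 went from 297 to 33.8 CPM and Wfdc2 from 538 to 49.2 CPM. Col17a1 and Lamb3 also named the basal-like class.

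The loss of the basal keratins ran beside that of the adhesion machinery. Of 13 genes of basal adhesion and basement membrane, 12 were tested, and 11 were called lower and none higher in suprabasal-like cells by edgeR (median log2 fold change −2.18, against −0.02 over all genes, of which 20% were called lower). In superficial-like cells 11 of 12 were lower (median −4.72, all genes −0.11, 31.7% of them called lower), among them Col17a1 (−5.87) and Dst, which links keratins to hemidesmosomes (−5.91). Of 17 other keratins in the files, 7 were tested in suprabasal-like cells, where 5 were higher and 1 lower (19.9% of all genes were higher). Krt4 (3.57) and Krt13 (2.39) were among those that rose. In superficial-like cells 6 of 8 rose and 2 fell, with 28.5% of all genes higher and Krt4 at 4.80 and Krt13 at 3.30. Of the desmosome and keratin-linker genes, which fasten keratin filaments at cell junctions, 10 of 11 rose and 1 fell in suprabasal-like cells (median 1.40), with Dsp, the plakin that binds keratin filaments, at 1.36 and Perp at 1.40. Transcription factors of stratified epithelium went both ways, with 8 of 19 higher and 7 lower, and Fos fell by 0.32 on the log2 scale. Krt4, Krt13, Dsc2, Grhl3, Col17a1, Dst, Itga6, Itgb4, Trp63 and Lamb3 also named the classes, so their calls are not independent of them.

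No age difference of a basal keratin was called, and all 3 passed the low-count filter in each class. Over all cells, Krt5 was at 6220, 3691 and 4205 CPM in aged mice and at 4626, 5508 and 4350 CPM in young mice. edgeR's quasi-likelihood log2 fold change of aged minus young was 0.01 (SE 0.21, adjusted p = 1.00) for Krt5, −0.21 (SE 0.24, adjusted p = 0.993) for Krt14 and 0.09 (SE 0.19, adjusted p = 0.995) for Krt15. Of 9350 genes tested, 4 (0.0428%) were called in either direction. In basal-like cells the values were −0.12 (SE 0.18), −0.29 (0.21) and −0.11 (0.18), with adjusted p of 0.967, 0.877 and 0.967 by edgeR, where 0.181% of genes were called. Krt14 was lower in the aged mean of each class by the fit, at −0.38 (SE 0.21, edgeR adjusted p = 0.963) in proliferating-like cells and −0.65 (SE 0.33, edgeR adjusted p = 0.999) in suprabasal-like cells, where 0.0378% and 0.0601% of genes were called. Without aged mouse 2 the all-cell value for Krt14 was 0.01, so its sign over all cells rests on that mouse. Leaving out 1 mouse at a time, the Krt14 value ran from −0.55 (without aged mouse 3) to −0.083 (without aged mouse 2) in basal-like cells, from −0.66 to −0.17 in proliferating-like cells (without the same mice), and from −1.09 (without young mouse 3) to −0.27 (without young mouse 2) in suprabasal-like cells. In superficial-like cells the values were 0.40 (SE 0.43), −0.35 (0.48) and −0.46 (0.29) by edgeR, each with an adjusted p of 0.998, with no gene called of 4828 (173 at an unadjusted p under 0.05). The exact permutation tests of CPM per mouse gave p of 0.2 to 1 in every class, where 3 against 3 mice cannot go below 0.1, and for each member the ages overlapped. Ages did not overlap for 11.8% of genes over all cells and for 11 to 19.5% of genes within classes.

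The decline was likewise not called different between ages. The log2 ratio of suprabasal-like to basal-like cells was −1.84 in aged and −1.83 in young mice for Krt5, −3.81 and −3.82 for Krt14, and −2.09 and −2.36 for Krt15 (exact permutation p = 1, 1 and 0.2). edgeR's interaction of age and class was −0.05, −0.17 and 0.24, with Krt15 at an unadjusted edgeR p of 0.0423 and an adjusted p of 1.00, where none of 7145 genes was called (278 at an unadjusted p under 0.05). For superficial-like cells it was 0.73, 0.09 and −0.31, with Krt5 at an unadjusted edgeR p of 0.0274 and an adjusted p of 1.00 (0.0836% of genes called). The aged side of that ratio held 2 mice. The share of basal-like cells with all 3 keratins was 86.6% in aged and 91.6% in young mice, a difference of −4.97 percentage points (exact permutation p = 0.3) that ran from −7.51 without aged mouse 3 to −2.26 without aged mouse 2. With 3 mice a group these tests do not show that the ages are alike.

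**Figure D5:**
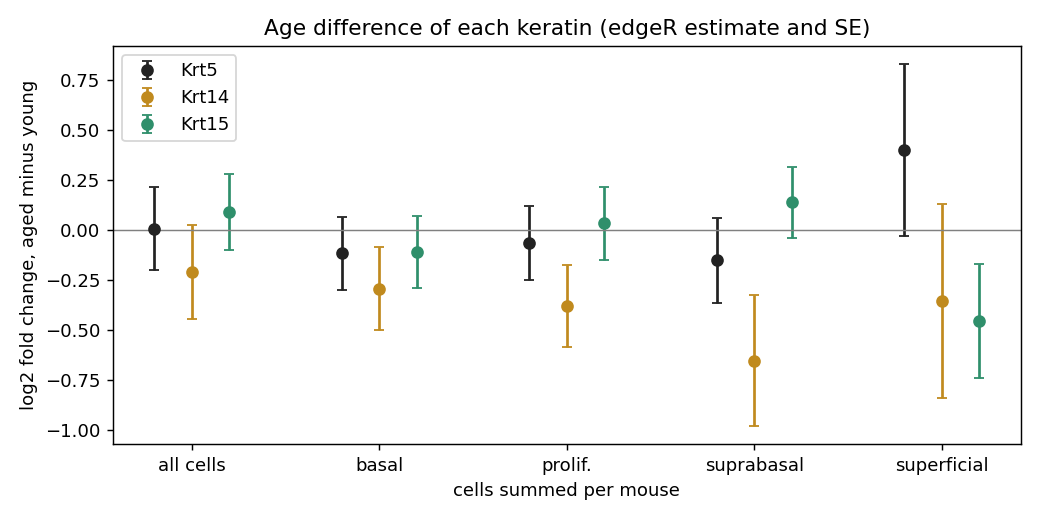
edgeR log2 fold change of aged minus young for each keratin, with its standard error, over all cells and in 4 classes. Estimates lie between −0.65 and 0.40, none was called, and Krt14 is the gene below 0 in all 5 sums.

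Around the members, no gene of the adhesion, keratin, transcription factor or desmosome lists was called for age in any class by edgeR. Over all cells, the adhesion list had a median log2 fold change of 0.21 (9 of 13 positive), with Dst at 0.54 (edgeR adjusted p = 0.886), and the other keratins −0.06 (3 of 11 positive). All 12 desmosome genes tested were negative (median −0.20), with Dsp at −0.21 and Dsg1a, a desmosomal cadherin, at −0.83 (edgeR adjusted p = 0.983). Of all 9350 genes tested, 4671 were positive and 4679 negative. None of the 12 had an unadjusted edgeR p under 0.05, and genes of a list share the same mice. All-cell values depend on class makeup. Within the 4 classes the medians were 0.036 (basal-like) to 0.14 for the adhesion list, −0.32 (proliferating-like) to 0.18 (superficial-like) for the other keratins and −0.31 to −0.086 for the desmosome list, 9 of whose 11 tested genes were negative in each class. Over all genes, 3036 of 6063 were negative in basal-like, 2694 of 5297 in proliferating-like, 3313 of 6660 in suprabasal-like and 2408 of 4828 in superficial-like cells. Krt6a, a stress-induced type II keratin next to Krt5, was at −1.07 over all cells (edgeR adjusted p = 0.952), −1.48 in suprabasal-like cells (edgeR adjusted p = 0.0675) and −2.19 in superficial-like cells (edgeR adjusted p = 0.139).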

How the data were processed

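Single cells of 6 mice in 12 inDrop libraries were analysed. Per the submitters' processing notes, UMI-tools 1.0.0, STAR 2.7, Subread 2.0.0, featureCounts and Seurat were used with GRCm38; the annotation, barcode filter and handling of reads matching several genes are not given in the sources used here. The deposited files hold raw whole-number counts per gene and cell. One extraction label ends with a phrase on another protocol, Smart-Seq2.

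The members and gene lists were chosen with earlier results of these data known. Libraries of a mouse were summed per barcode, since they share cells. Because the labels leave the make-up of a numbered mouse unstated, p-values measure only the spread between these samples. Cells under 200 genes (40), over 20% mitochondrial counts (69) or called doublets by scanpy's Scrublet (56) were removed, leaving 9988937 counts (507712 to 2531871 per mouse). Clustering used 2000 variable genes, 30 components, 15 neighbours and Leiden resolution 0.5; a class needed 3 markers found in at least 25% of cells at a log2 fold of at least 0.5, and no mouse giving over 60% of it. Sums of at least 20 cells per mouse entered tests: edgeR 4.0.16 quasi-likelihood (TMM, filterByExpr, Benjamini-Hochberg, threshold 0.05) and exact permutation tests on log2(CPM + 10). The edgeR test between classes and the comparisons of keratins bin by bin were added after the data were seen. Named genes were the 5 most correlated with each member (mean of at least 50 CPM), and from each list the 2 most abundant, the largest age difference and any gene called for age. Scripts were tested on simulated data. Tools were Python 3.11.15, scanpy 1.11.5, scipy 1.17.1, R 4.3.3 and DESeq2 1.42.0.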

Additional observations from a re-analysis of the deposited data

How the results depend on the processing

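Of 1021 values recomputed under other settings for 66 results, 842 kept their direction and side of the threshold (unadjusted for the exact tests), or, where no exact test could pass it, moved by less than 1 SD. Of the others, 108 are the values of 18 results called at 6 mice that kept their direction with 1 mouse left out, since 5 mice cannot reach the threshold; they say nothing of stability of the call. No age difference of a member was called under any setting (lowest adjusted p 0.181, edgeR or DESeq2), so a change of sign below is a change within error, and its cause was not tested. The mouse number as a replicate block gave −0.014 for the age difference of Krt5 over all cells, and same-numbered mice did not deviate together (correlations −0.57, −0.43 and 0.01 over 3536 genes), so the numbers do not pair mice. Other changes of sign for Krt5 over all cells were −0.023 with no low-count filter, −0.038 with total counts only, −0.046 with a mitochondrial limit of 10% and −0.018 with library 1 only. For Krt15 in proliferating-like cells they were −0.0040 with no filter and −0.0081 with total counts only.

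Leaving out 1 mouse at a time gave suprabasal-like ratios of −1.92 to −1.76 (Krt5), −3.98 to −3.56 (Krt14) and −2.29 to −2.19 (Krt15), with −2.12 to −1.76 for Krt14 minus Krt5, −0.44 to −0.29 for Krt15 minus Krt5 and 1.37 to 1.76 for Krt15 minus Krt14. The proliferating-like ratio of Krt14 was −0.24 to −0.22. From bin 1 to bin 5 the changes were −4.69 to −4.23 (Krt5), −5.90 to −5.26 (Krt14) and −2.74 to −2.48 (Krt15), with 1.70 to 2.07 for Krt15 minus Krt5 and 2.52 to 3.28 for Krt15 minus Krt14, and the excess of suprabasal-like cells with all 3 keratins was 5.93 to 6.995 percentage points. It gave age differences of −0.21 to 0.13 (Krt5) and −0.40 to 0.0086 (Krt14) over all cells, −0.23 to 0.042 (Krt5) and −0.020 to 0.14 (Krt15) in proliferating-like cells, −0.41 to 0.039 (Krt5) in suprabasal-like cells and −0.66 to 0.44 (Krt14) in superficial-like cells. For the interaction of age with suprabasal-like cells it gave −0.17 to 0.16 (Krt5) and −0.72 to 0.22 (Krt14), and with superficial-like cells −0.68 to 0.84 (Krt14). Those interactions also turned for Krt5 to 0.0036 (library 1), 0.0089 (resolution 0.3) and 0.023 (members kept in the clustering), for Krt14 to 0.17 (resolution 0.3) and 0.12 (resolution 0.8), and in superficial-like cells to −0.24 (library 1) and −0.22 (resolution 0.8).

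The difference of Krt15 and Krt5 in suprabasal-like cells turned to 0.78 with doublet calls kept and 0.79 at resolution 0.8. The same settings moved the age difference of the Krt5 ratio there from −0.01 to −0.49 and −0.40, and lowered the excess of cells with all 3 keratins to 3.08 and 2.78 percentage points. At resolution 0.8 the superficial-like ratio was −3.96 for Krt15, and its age difference for Krt14 was −0.63. Passing the threshold only under an alternative were the proliferating-like ratio of Krt15 (−0.25 with doublets kept and −0.25 by edgeR), the superficial-like ratios by edgeR (−5.56, −5.55 and −2.83), bin 5 against bin 1 for Krt14 minus Krt5 (−1.06 with at least 500 genes, −1.02 with library 2, −1.08 with the share of counts as score, −0.98 without Krt4 and Krt13), the bin 3 difference of Krt15 and Krt5 (−0.46 with at least 500 genes, −0.47 with doublets kept, −0.50 with library 1, −0.45 with library 2, −0.45 without Krt4 and Krt13), and the cycling difference for Krt14 (−12.1 with doublets kept, −12.4 at resolution 0.8, −8.58 with members kept, −4.60 at 500 counts). The cycling difference for Krt5, on almost no cells without it, was −16.7 with library 2. The difference of Krt15 and Krt14 missed the threshold in bin 3 with at least 500 genes (0.40) and library 1 (0.44), and in bin 4 with library 2 (1.16) and the share of counts as score (1.37). At 500 counts, 73.8% of basal-like cells had all 3. Log2 odds ratios of co-detection in basal-like cells turned to −0.24 (mitochondrial limit 10%) and −0.86 (library 1) for Krt5 and Krt14, and to −0.12 (library 1) for Krt14 and Krt15, which also missed the threshold with 5 other settings (0.98 to 2.31). Not run were the age difference of the superficial ratio without aged mouse 2 or 3 (1 aged mouse left) and odds ratios at nearly complete detection.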

Other observations

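The unnamed cluster of 158 cells, 83.5% of them from aged mouse 2 and led by Serpinb3c, Ada and Asprv1, was kept out of the comparisons between classes because 1 mouse gave most of it. In the 132 cells of aged mouse 2, Krt5 was at 3825 CPM, Krt14 at 1417 CPM and Krt15 at 4252 CPM, and 96.2%, 76.5% and 94.7% of the cells had a count of each. These levels lay between the basal-like and suprabasal-like levels of the same mouse. The 13 superficial-like cells of aged mouse 1 held Krt15 at 37.3% of the basal-like level of that mouse (exact Poisson 95% interval 31.8 to 43.6%) and Krt5 at 4.06%.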
